A study of Mus musculus with 24 samples.

Results

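The comparison described here set 3 arrays of cardiomyocytes from Top2b-deleted mice, taken 72 h after doxorubicin, against 3 arrays of cardiomyocytes from Top2b-deleted mice taken 72 h after PBS. These 6 arrays, of 24 in the series, were chosen by their titles and carry replicate numbers 2, 3 and 4 in each group. Every mouse of both groups had the labelled genotype Top2b-/-, a deletion restricted to the heart on a 129SvEv/C57BL/6 background, and the labels give all as male and 6 weeks old. Doxorubicin was given once into the peritoneum at 25 mg/kg, PBS by the same route, and the heart muscle cells still alive were taken by Langendorff perfusion of the removed heart. The labels do not name the promoter that drove the deletion. Nor do they state whether any 2 arrays came from one mouse, so the p-values rest on array-to-array spread, which may be technical. Wild-type mice treated in the same way at 72 h, on 6 further arrays, are used only where the Top2b-deleted response is set against theirs.

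Doxorubicin is an anthracycline used against cancers and is known for damage to the heart. It poisons type II topoisomerases, the enzymes that pass one DNA duplex through a transient break in another. Topoisomerase II beta, the product of Top2b, is the form present in non-dividing cells such as adult cardiomyocytes, whereas Top2a is tied to proliferation. DNA breaks left by a poisoned enzyme activate p53, whose targets include the cell cycle inhibitor Cdkn1a. The comparison asks what the heart muscle cell's RNA looks like 3 days after the drug when this target enzyme is reduced.

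Levels are log2 of the processed signal relative to the 75th percentile of the array, so a level of 0 is that percentile, and differences are doxorubicin minus PBS. Testing took in a gene whose probe exceeded background clearly, by the scanner's flag, throughout 1 or both of the groups. On the 6 arrays the processed signal had its 75th percentile between 193 and 245, the flag held for 48.7% to 52.3% of spots, and 0 non-control spots were saturated. Replicate numbers 2 and 3 shared 1 slide and replicate 4 lay on another, so each doxorubicin array was paired with the PBS array of the same number. The Top2b probe lies at chr14:17263157-17263216 (mm9), and the labels do not say whether the deletion covers it. Its level averaged 2.51 ± 0.34 on the 6 Top2b-deleted arrays and 3.43 ± 0.17 on the 6 wild-type arrays (SD, n = 6 each), which is 53% of the wild-type level (two-sided exact permutation p = 0.00216). Within the Top2b-deleted arrays the Top2b levels were 3.07, 2.56 and 2.13 after doxorubicin and 2.65, 2.44 and 2.21 after PBS, in the order of replicates 2, 3 and 4. The highest of the 6 was doxorubicin replicate 2.

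All 20 cardiomyocyte markers were well above background on every one of the 6 arrays. Their summed linear level was between 15300 and 18100 multiples of the 75th percentile after doxorubicin and between 17200 and 18900 after PBS. Myh6, the adult alpha myosin heavy chain, was at 10.55, 10.74 and 10.52 after doxorubicin, against 10.68, 10.68 and 10.81 after PBS. The tissue label therefore had its markers on each array. Although all mice are labelled male, Ddx3y, on the Y chromosome, exceeded background only on PBS replicate 3, at 2.50, where Xist was at -6.03 and not above background. The other 5 arrays had Ddx3y at or below -5.88 and Xist at or above -1.62. Pair 3 set an array with Xist against an array with Y-linked transcripts, and values without pair 3 are given where a result rests on it. The same held for pair 4 of wild type. There Ddx3y was at 2.44 and Xist at -6.2 on PBS replicate 4, against -5.66 and -0.58 on doxorubicin replicate 4. Wild-type values and differences of responses below include that pair, and its part in them was not tested.

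Doxorubicin left no gene past the threshold in Top2b-deleted cardiomyocytes at 72 h. Of 19012 genes tested in limma with the replicate number as a block, 0 (0%) passed a Benjamini-Hochberg adjusted p of 0.05, and the lowest adjusted p was 0.749. At an unadjusted p under 0.05 there were 1251 genes (6.58%), of which 721 (3.79%) were higher and 530 (2.79%) were lower after doxorubicin. The fit had 2 residual degrees of freedom, and the 95% interval of a gene's difference reached a median of 0.358 to either side. That interval is for 1 gene before adjustment, so changes larger than this could also be missed. Differences of 1.71 for Grhl1 and 1.54 for Gpnmb, for example, had an adjusted p of 0.749 in limma. Only 161 genes had a mean difference of at least 2-fold. The 3 doxorubicin levels all lay above the 3 PBS levels for 540 genes (2.84%) and all below for 831 genes (4.37%). A gene was higher in all 3 pairs in 2529 cases (13.3%) and lower in all 3 pairs in 3314 (17.4%).

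The 3 pairs shared little of their pattern. Pair 2 had 434 genes at least 2-fold higher (2.28%) and 630 at least 2-fold lower (3.31%). Pair 3 had 450 higher (2.37%) and 234 lower (1.23%). Pair 4, on the other slide, had 167 higher (0.878%) and 108 lower (0.568%), the fewest of the 3 with this filter. With no filter on dim probes pair 4 had the most genes higher, 2110 against 1668 in pair 2 and 2050 in pair 3. With the authors' scaling by the median the split turned round, to 302 higher and 333 lower in pair 3 and 113 higher and 152 lower in pair 4, and with normexp it turned in all 3, to 201 and 178 in pair 2, 75 and 78 in pair 3 and 4 and 26 in pair 4, higher before lower. The spread of the differences over genes had an SD of 0.51, 0.43 and 0.31 in pairs 2, 3 and 4. Across 19002 genes the differences of pairs 2 and 3 correlated at r = 0.10, those of pairs 2 and 4 at 0.06 and those of pairs 3 and 4 at 0.20. These correlations run across genes, which are not independent, and in wild type they were 0.68, 0.39 and 0.36.

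Only 9 genes were at least 2-fold apart in the same direction in all 3 pairs, 6 higher and 3 lower after doxorubicin, and they were chosen by these values. Of the 6 higher, 2 have gene names. Gpnmb, a transmembrane glycoprotein made by macrophages and other cells, was at -1.74, -2.01 and -1.91 after doxorubicin, against -2.87, -4.06 and -3.35 after PBS, a difference of 1.54 ± 0.21 (SE, n = 3 pairs, as in all differences below). Grhl1, a grainyhead-type transcription factor known from skin, was at -0.75, -1.54 and -2.77 after doxorubicin and at -2.95, -3.23 and -4 after PBS, a difference of 1.71 ± 0.21. The groups did not overlap for either gene, and each was not well above background on 1 PBS array. The 3 lower genes were each not well above background on at least 1 doxorubicin array, so their fitted differences are not measured sizes. They were Adcy1, an adenylyl cyclase, with a difference of -1.93 ± 0.37, the globin gene Hbb-b2 with -2.23 ± 0.31, and the Y-linked gene Eif2s3y with -3.43 ± 1.1. Adcy1 and Hbb-b2 were well above background on only 1 of 3 doxorubicin arrays. Eif2s3y had pair differences of -2.66, -6.61 and -1.02, and the PBS array of pair 3 was the one with Y-linked transcripts.

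A small group of acute phase and complement genes was higher after doxorubicin in every pair. C3, the central complement component, read at chr17:57343416-57343475, was at 2.80, 2.47 and 3.72 after doxorubicin and at 2.04, 1.31 and 2.78 after PBS. The groups overlapped, since PBS replicate 4 lay above doxorubicin replicate 3, but each pair differed in the same direction, by 0.76, 1.16 and 0.94 (mean 0.95 ± 0.13, unadjusted p = 0.000954 and adjusted p = 0.749 in limma). Lcn2, lipocalin 2, a siderophore-binding acute phase protein read at chr2:32240199-32240258, was at 0.35, 1.13 and 0.32 after doxorubicin and at -0.73, 0.17 and -0.26 after PBS, and here the groups did not overlap (0.87 ± 0.14, adjusted p = 0.749 in limma). Cfb, complement factor B, was well above background on all 3 doxorubicin arrays and on none of the PBS arrays. Its difference is therefore given as a bound on the group means, 1.85-fold higher after doxorubicin. Its pair differences were 1.39, 0.56 and 1.11, so pair 3 differed by less than that bound of 0.89 in log2. Serpina3n, an acute phase protease inhibitor, differed by 1.21, 0.32 and 1.23.

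Over the whole list of acute phase, complement and serpin genes, 0 of 25 tested members passed the adjusted threshold, 9 were higher in all 3 pairs and 1 was lower in all 3, beside 13.3% and 17.4% of all genes, the background for each such count below. The list's median difference was 0.26, against -0.01 over all genes tested, and its medians were -0.15, 0.49 and 0.24 in pairs 2, 3 and 4. Without pair 3 the median was 0.07. Unpaired and without doxorubicin replicate 4 it was -0.07. Lgals3, on no list, encodes galectin-3, known from macrophages and fibrosis, and was at -0.33, -0.28 and -0.10 after doxorubicin and at -0.99, -1.52 and -0.82 after PBS (0.87 ± 0.16). S100a9, a neutrophil calcium-binding protein gene chosen after its values were seen, was too dim to test. It was at -2.10, -3.96 and -1.97 after doxorubicin and at -5.72, -5.79 and -4.44 after PBS. It was well above background on 2 of the 3 doxorubicin arrays, and S100a8 on none of the Top2b-deleted arrays. The 5 tested neutrophil markers had a median difference of -0.03, with 0 higher in all 3 pairs and pair medians of 0.17, 0.36 and -0.10. In bulk RNA, more cells of a type and more RNA per cell cannot be told apart. The 23 macrophage and monocyte markers summed to between 115 and 169 after doxorubicin and between 116 and 133 after PBS, and 13 to 23 of them were above background after doxorubicin against 18 to 20 after PBS. Their part in the acute phase values was not tested.

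**Figure D1:**
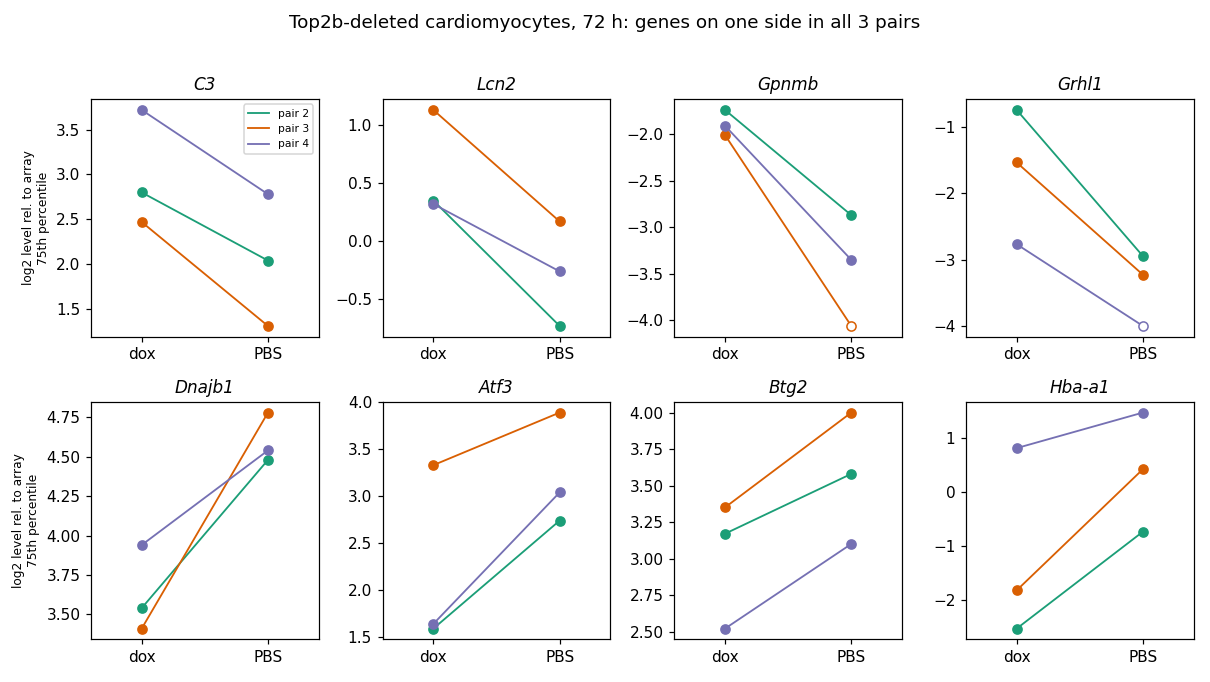
Levels of 8 genes on the 6 Top2b-deleted arrays at 72 h, as log2 relative to the array's 75th percentile, with doxorubicin (dox) left and PBS right. Lines join arrays of one replicate number, and open points were not well above background. In each panel the 3 lines run the same way: C3, Lcn2, Gpnmb and Grhl1 were higher after doxorubicin in all 3 pairs, and Dnajb1, Atf3, Btg2 and Hba-a1 were lower.

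Some heat shock and immediate early genes were lower after doxorubicin in all 3 pairs, though 0 passed the threshold. Heat shock proteins are chaperones whose genes are switched on by the factor HSF1 through heat shock elements, inverted repeats of GAA found upstream of many of them. To set the values of Hspa1a, Dnaja1, Hsph1 and Dnajb1 beside their upstream sequence, the 250 bases before the annotated start of each are shown, from RefSeq on GRCm38.p6, 5′ to 3′ on the gene's strand. Capitals mark matches to GAANNTTC or TTCNNGAA, 2 forms of the element, each of which reads the same on both strands.
Hspa1a, chr17:34972157-34972406, minus strand: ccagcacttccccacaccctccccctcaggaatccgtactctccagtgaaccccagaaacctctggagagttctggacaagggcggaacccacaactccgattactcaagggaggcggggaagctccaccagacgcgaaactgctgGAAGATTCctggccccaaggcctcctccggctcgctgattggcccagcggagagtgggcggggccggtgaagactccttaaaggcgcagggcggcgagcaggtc
Dnaja1, chr4:40722218-40722467, plus strand: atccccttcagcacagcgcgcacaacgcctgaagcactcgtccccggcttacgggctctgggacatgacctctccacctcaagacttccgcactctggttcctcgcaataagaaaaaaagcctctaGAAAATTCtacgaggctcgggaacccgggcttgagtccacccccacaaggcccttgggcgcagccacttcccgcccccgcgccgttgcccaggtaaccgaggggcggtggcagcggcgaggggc
Hsph1, chr5:149636316-149636565, minus strand: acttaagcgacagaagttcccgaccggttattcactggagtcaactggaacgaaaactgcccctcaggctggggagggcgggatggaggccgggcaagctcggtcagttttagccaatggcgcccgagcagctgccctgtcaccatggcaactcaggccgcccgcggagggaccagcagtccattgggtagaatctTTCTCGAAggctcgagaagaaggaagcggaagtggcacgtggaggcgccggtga
Dnajb1, chr8:83607925-83608174, plus strand: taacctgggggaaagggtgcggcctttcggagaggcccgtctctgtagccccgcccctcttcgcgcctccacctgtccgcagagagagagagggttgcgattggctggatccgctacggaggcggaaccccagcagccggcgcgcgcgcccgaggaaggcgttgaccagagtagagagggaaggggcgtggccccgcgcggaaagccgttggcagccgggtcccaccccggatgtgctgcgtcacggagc
Hspa1a, Dnaja1 and Hsph1 each held 1 match in the window shown, and Dnajb1 held none of these letters there. Dnaja1 has 3 such windows in the table and Hsph1 and Dnajb1 have 2 each, of which the 1 with the most matches is shown. That choice favoured a match in the windows shown for Dnaja1 and Hsph1. One or the other form was in 12.8% of all 32851 upstream windows. Counted by gene, 14.5% of 27025 genes had it in a window, and so did 12 of the 26 heat shock list genes found in the table (46.2%). A match is a description of the letters and not a shown binding site.

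Dnajb1, an HSP40 co-chaperone read at chr8:86135660-86135719 (mm9), was at 3.54, 3.41 and 3.94 after doxorubicin and at 4.48, 4.78 and 4.54 after PBS. All 3 doxorubicin arrays lay below all 3 PBS arrays, with pair differences of -0.94, -1.37 and -0.60 (mean -0.97 ± 0.18, adjusted p = 0.749 in limma). Hsph1, an HSP110 chaperone, was at 2.96, 3.48 and 3.65 after doxorubicin and at 3.44, 3.65 and 4.59 after PBS (-0.53 ± 0.18), so the groups overlapped. Dnaja1, another HSP40 co-chaperone, had 0.20, -0.99 and -0.87. Hspa1a, the inducible HSP70, varied more, with pair differences of 0.68, -2.20 and -2.92 that set pair 2 apart from the other 2. Its levels were 0.33, -0.61 and 0.02 after doxorubicin and -0.35, 1.59 and 2.94 after PBS, so its spread was wider among the PBS arrays. Of 32 tested heat shock and chaperone genes, 0 passed the threshold, 13 were lower and 2 were higher in all 3 pairs (17.4% and 13.3% of all genes), and the median difference was -0.20. Its medians by pair were 0.05, -0.13 and -0.34, so the list's median was below 0 in pairs 3 and 4 only, and without pair 4 it was -0.06.

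Among immediate early genes, which are induced within minutes by growth and stress signals, 8 of 25 tested members were lower in all 3 pairs and 0 were higher (17.4% and 13.3% of all genes). Atf3, a stress-induced transcription factor at chr1:192994547-192994606, was at 1.59, 3.33 and 1.64 after doxorubicin and at 2.74, 3.89 and 3.04 after PBS (-1.04 ± 0.19, adjusted p = 0.749 in limma). Doxorubicin replicate 3 lay above 2 of the 3 PBS arrays, so the groups overlapped. Btg2, an antiproliferative gene that is also a p53 target, had pair differences of -0.41, -0.65 and -0.58, and the phosphatase gene Dusp6 of -0.48, -0.32 and -0.50. Fos, in contrast, had -0.31, -0.77 and 0.05, and Egr1 had -1.01, 0.76 and 0.53. The list's median was -0.24, and in pairs 2, 3 and 4 it was -0.09, -0.36 and -0.23. Without pair 3 the median was -0.13.

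Respiratory chain genes had slightly negative medians in all 3 pairs. Complex I, which passes electrons from NADH to ubiquinone, had 27 of 37 tested subunit genes lower in all 3 pairs and 0 higher, with a median difference of -0.15 and pair medians of -0.24, -0.09 and -0.14. Complexes II to V had 28 of 46 lower in all 3 pairs and 0 higher, with a median of -0.14. Genes of glycolysis, glycogen and the TCA cycle had 22 of 45 lower and 2 higher, with a median of -0.10. Beside these shares stands the background of 17.4% lower in all 3 pairs over all genes. Of these genes, 0 passed the threshold. Mdh2, mitochondrial malate dehydrogenase, is an example of how small and even the differences were, at -0.26, -0.24 and -0.23. The cardiomyocyte markers had a median of -0.11, with 6 of 20 lower in all 3 pairs. Of 32 regulators of mitochondrial biogenesis, 9 were lower and 1 higher in all 3 pairs, with a median of -0.06. Among them Ppargc1a (PGC-1 alpha) had pair differences of 0.50, -0.20 and 0.35, and Tfam, the mitochondrial DNA packaging factor, had -0.38, -0.19 and -0.24.

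The p53 targets had a median of 0.07 over 31 tested genes, with 6 higher and 4 lower in all 3 pairs and 0 past the threshold. Cdkn1a, the p21 cell cycle inhibitor, was at 2.14, 1.29 and 1.67 after doxorubicin and at 1.52, 0.71 and 1.78 after PBS. It was higher in pairs 2 and 3, by 0.63 and 0.57, but its difference was -0.11 in pair 4 (mean 0.36 ± 0.19, 95% interval from -0.13 to 0.86). Mdm2, which targets p53 for degradation, had differences of 0.02, 0 and 0.12. The proapoptotic gene Bbc3 (PUMA) had 0.72, 0.37 and 0.21. Polh, which encodes the translesion polymerase eta and was not on the list, was at -2.88, -2.58 and -3.02 after doxorubicin and at -3.34, -3.40 and -3.62 after PBS (0.63 ± 0.13), with no overlap. Among repair genes, Rad52, a recombination mediator, had 0.77, 0.34 and 0.34, and Xrcc3, a recombination repair gene, had -1.85, -0.41 and -0.67. The DNA damage list as a whole had a median of 0.01. The 5 tested topoisomerase genes, which relax or unlink DNA, had differences between -0.01 for Top1mt and 0.18 for Top3b.

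Of 29 tested fetal and stress genes of the heart, 6 were higher and 6 lower in all 3 pairs, with a median of -0.06. Nppa and Nppb, the atrial and B-type natriuretic peptides raised in heart failure, had differences of -0.29 ± 0.32 and -0.23 ± 0.17. Itgb1bp3, a muscle nicotinamide riboside kinase gene, was at 3.48, 4.21 and 3.92 after doxorubicin and at 3.05, 2.85 and 3.01 after PBS, with no overlap (0.90 ± 0.20). Spp1, osteopontin, had 0.25, 2.67 and 2.79, but was not above background on any PBS array. Of calcium handling and conduction genes, 14 of 46 were lower and 2 higher in all 3 pairs (17.4% and 13.3% of all genes), with a median of -0.12, and Casq2, cardiac calsequestrin, had -0.75, -0.25 and -0.16. Adrenergic and cAMP genes had a median of -0.02. Of these, 9 of 33 were lower and 1 higher in all 3 pairs, against the same background. The lower ones included phosphodiesterase genes: Pde5a had -1.09, -2.06 and -0.21, and Pde4a had -0.89, -0.43 and -0.16. Fkbp5, a textbook glucocorticoid receptor target, had 1.83, 1.02 and 0.32. Of the glucocorticoid list, 9 of 34 were higher and 4 lower in all 3 pairs (13.3% and 17.4% of all genes). That list's median was 0.16, and in pairs 2, 3 and 4 it was 0.43, 0.04 and 0. Without pair 2 the median was 0.02.

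The remaining genes named by the smallest p-values among those with no overlap, measured on all 6 arrays, are given as values and not as changes, since 0 passed the threshold. On the higher side were Olfr224, Ptprm, Trim12c, Epb4.1l5, Agfg2, Axin2 and Gcnt2, with differences between 0.65 and 1.02. Axin2, a feedback inhibitor of Wnt signalling, was at -2.88, -2.84 and -3.01 after doxorubicin and at -3.35, -3.75 and -3.66 after PBS. Trim12c had a difference of 0.67 by its brightest probe and of -0.06 by the mean of its probes, so its probes disagree. On the lower side were Rgs7, Pip5k1c, Abhd13, Rnf157, Pigz, AI663975, Dcaf13 and Fam131a, with differences between -1.29 and -0.52. Esr1 was at 5.24, 5.93 and 6.35 after doxorubicin and at 6.89, 6.70 and 7.10 after PBS (-1.06 ± 0.22). Esr1 encodes the oestrogen receptor alpha. The level of its probe was uneven in wild type, at 6.62, -2.06 and -4.37 after doxorubicin and at 8.41, 8.58 and -6.18 after PBS. It was not well above background on replicate 4 of either wild-type group. Whether the probe read only the mouse's own receptor RNA was not tested, so its difference is not given as a fall of that RNA. Of 19012 genes tested, 31 were well above background on all doxorubicin arrays and on no PBS array, and 16 the other way round. These genes passed the filter only through the group where they were high. Leaving out probes without a gene name, the doxorubicin ones were led by Hivep3, at least 2.17-fold higher after doxorubicin, Cfb and Mobkl2b, at least 1.76-fold higher. With the same exception, the PBS ones were led by Slc46a2, at least 2.24-fold lower, Ehf, at least 1.59-fold lower, and Slc6a13, at least 1.54-fold lower. These leading genes were dim, and even Hivep3 averaged only -2.67 after doxorubicin. Each bound is on group means, and a single pair can differ by less. Ehf, for example, differed by -0.44 in pair 3, beside a bound of 0.67 in log2.

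For some genes doxorubicin replicate 2 differed from the other doxorubicin arrays, and these genes were chosen by these values. Over all genes its levels correlated at 0.984 with those of doxorubicin replicate 3 and at 0.968 with those of replicate 4. Replicates 3 and 4 correlated at 0.981. Such correlations rest mostly on level differences between genes, so they do not decide whether this array stood apart. The differences of pair 2 had the widest spread, with an SD of 0.51 against 0.43 in pair 3 and 0.31 in pair 4. They correlated at 0.1 with those of pair 3 and at 0.06 with those of pair 4, against 0.2 between pairs 3 and 4. A pair difference also holds the PBS array, so the part of doxorubicin replicate 2 alone was not tested. Hmox1, heme oxygenase 1, at chr8:77624207-77624266, was at 3.37, -0.90 and -1.65 after doxorubicin and at -0.76, -0.02 and -1.10 after PBS, so its pair differences were 4.14, -0.88 and -0.55. Myh7, the beta myosin heavy chain re-expressed in stressed rodent ventricle, was at 10.28, 6.52 and 8.77 after doxorubicin and at 7.34, 7.31 and 8.42 after PBS. Its pair differences were 2.94, -0.79 and 0.35. In both genes pair 2 alone was far above 0, and the 95% interval of the mean included 0 (Hmox1 0.90 ± 1.07, Myh7 0.83 ± 0.73).

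The same array was high for Acot1, a peroxisome proliferator target that cleaves acyl-CoA, with 2.81, -0.95 and -0.16. It was low for Apln, the secreted peptide apelin, with -4.14, 0.16 and -0.23, where the level of -4.74 on doxorubicin replicate 2 was not well above background. It was also low for Tfrc, the transferrin receptor, with -2.10, -0.41 and 0.03. For Hmox1, Tfrc, Acot1 and Apln, all 3 wild-type pairs at 72 h differed in the direction that pair 2 showed. In wild type Hmox1 was at 2.30, 1.45 and 2.06 after doxorubicin, against -0.80, -0.85 and -0.43 after PBS, and Tfrc at -1.74, -2.17 and -1.43, against 1.44, 1.32 and 1.95. Acot1 was at 4.36, 5.53 and 4.19 in wild-type doxorubicin arrays, against 3.02, 2.74 and 3.34 after PBS, and Apln at -2.13, -3.46 and -3.19, against 1.03, 0.91 and 1.92. Postn, also low on doxorubicin replicate 2, had pair differences of -0.86, 0.24 and -1.24 in wild type. The genes past the threshold in wild type, described below, were not closest to wild type in pair 2 throughout. Those higher there had medians of 0.19, 0.25 and 0.04 in Top2b-deleted pairs 2, 3 and 4, and those lower there -0.20, -0.11 and -0.06. Doxorubicin replicate 2 also had the highest Top2b level of the 6 arrays, and its part in these values was not tested. Arc, an activity-regulated immediate early gene, differed in both directions, by 4.38, -4.25 and 0.25.

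**Figure D2:**
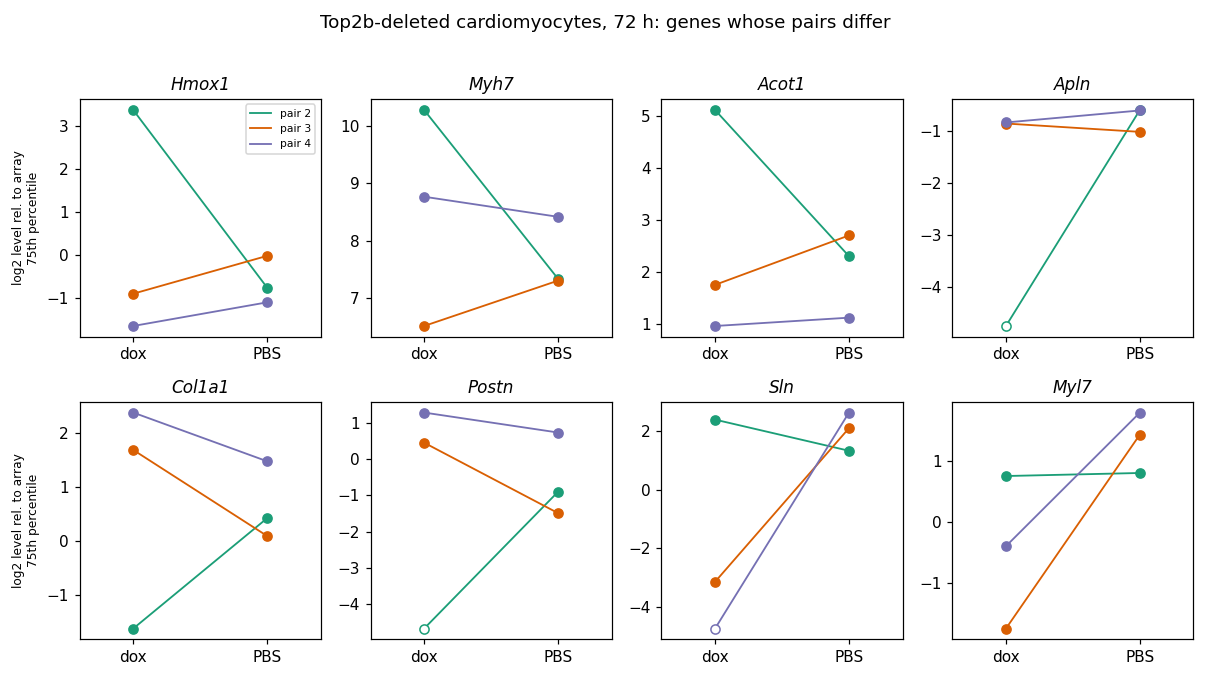
Levels of 8 genes on the 6 Top2b-deleted arrays at 72 h, as log2 relative to the array's 75th percentile, doxorubicin (dox) left and PBS right, with lines joining arrays of one replicate number and open points not well above background. The line of pair 2 runs apart from those of pairs 3 and 4. Hmox1, Myh7 and Acot1 were high and Apln, Col1a1 and Postn low on doxorubicin replicate 2. Sln and Myl7 were far lower after doxorubicin in pairs 3 and 4, while in pair 2 Sln differed by 1.06 and Myl7 by -0.05.

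Marker lists of other cell types took different signs in different pairs. Fibroblast markers had medians of -1.24, 1.23 and 0.36 in pairs 2, 3 and 4, and of -0.37 without pair 3. Their 21 members summed to between 41.7 and 231 after doxorubicin and between 50.8 and 189 after PBS, with 19 to 21 above background after doxorubicin and 19 to 20 after PBS. Col1a1, a chain of type I collagen, was at -1.62, 1.68 and 2.37 after doxorubicin and at 0.42, 0.09 and 1.47 after PBS. Postn, periostin of activated fibroblasts, had pair differences of -3.76, 1.94 and 0.55, and on doxorubicin replicate 2 it was not well above background. Extracellular matrix genes had the same order of pairs, with medians of -0.59, 1.1 and 0.46, and 2 of 33 were higher in all 3 pairs. Without pair 3 their median was -0.14. Macrophage markers had medians of -1.18, 0.57 and 0.18, and of -0.45 without pair 3.

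Some atrial myocyte markers were far lower in pairs 3 and 4 and not in pair 2. Sln, sarcolipin, was at 2.38, -3.14 and -4.73 after doxorubicin, the last not well above background, and at 1.32, 2.09 and 2.62 after PBS. Myl7, the atrial regulatory light chain, had -0.05, -3.18 and -2.18, and Myl4, the atrial essential light chain, had -0.04, -2.47 and -2.31. Nppa, the brightest of the 8 atrial markers, did not follow them, with -1.20, 0.18 and 0.15. The 4 globin genes, which mark red blood cells, were lower after doxorubicin in all 3 pairs. Hba-a1 was at -2.54, -1.83 and 0.81 after doxorubicin and at -0.74, 0.42 and 1.47 after PBS, and Hba-a2 had differences of -1.43, -2.42 and -0.73. Hbb-b1 had -2.55, -4.43 and -0.94, with 2 of its 3 doxorubicin arrays not well above background. The globin copies are near-identical, so their probes may share signal. The 10 erythroid markers summed to 1.41 and 1.75 in doxorubicin replicates 2 and 3, against 3.25 and 7.79 in PBS replicates 2 and 3. Whether such cells bear on other results was not tested.

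**Figure D3:**
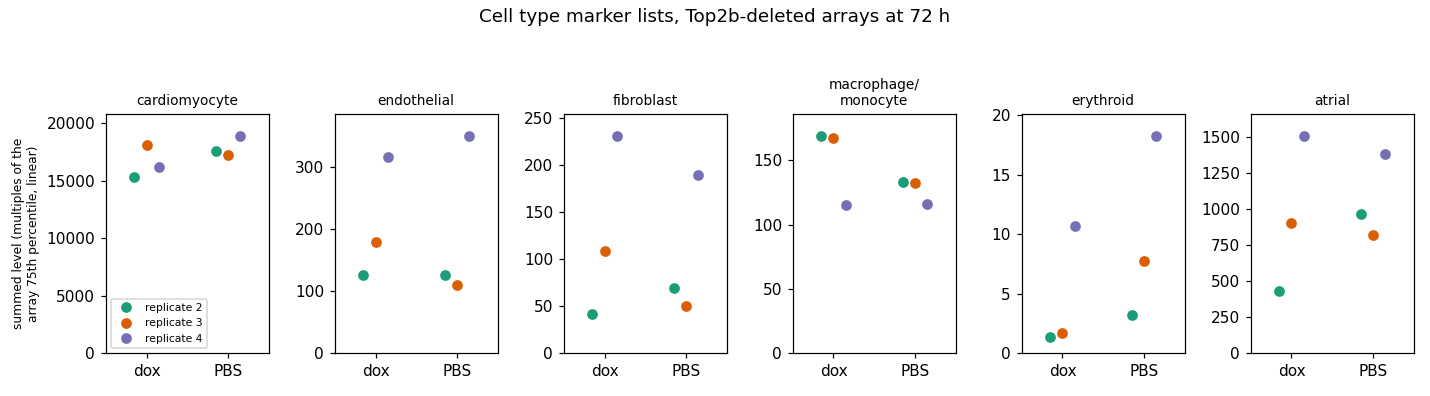
Summed linear levels of 6 cell type marker lists on each of the 6 arrays, in multiples of the array's 75th percentile, doxorubicin (dox) left and PBS right, coloured by replicate number. Cardiomyocyte sums lie between 15300 and 18900, endothelial and fibroblast sums were highest in replicate 4 in both groups, and erythroid sums were lower after doxorubicin than after PBS within each replicate.

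The genes past the threshold in wild type at 72 h had medians nearer 0 in Top2b-deleted cells. On the spread of all 12 arrays, 3289 of 19669 genes (16.7%) passed in wild type, 1248 (6.35%) higher and 2041 (10.4%) lower after doxorubicin, while 0 of 19669 passed in Top2b-deleted cells. This wild-type count depends on the fit, since on the wild type's own 6 paired arrays 0 of 18850 passed (lowest adjusted p = 0.0951 in limma, 4999 at an unadjusted p under 0.05), and the 12-array count was 75 without replicate 2, 0 without replicate 3 and 446 without replicate 4. The difference of the responses was itself tested, and 0 of 19669 genes passed (lowest adjusted p = 0.209 in limma, with 2983 or 15.2% at an unadjusted p under 0.05). When only probes well above background on every array were used, 1 of 16800 genes passed, Arhgef19 (1.53 ± 0.132, adjusted p = 0.0178). By that probe it was at -1.99, -1.72 and -2.08 after doxorubicin and at -2.33, -2.13 and -2.48 after PBS in Top2b-deleted cells, and at -2.64, -2.30 and -2.78, against -1.44, -1.14 and -1.71, in wild type. The gene's brightest probe did not pass, so the call rests on 1 of its probes.

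Of the genes higher in wild type, 1111 were tested in Top2b-deleted cells. Their median difference was 0.19, 0.25 and 0.04 in Top2b-deleted pairs 2, 3 and 4, against 1.03, 1.56 and 0.75 in the wild-type pairs that chose them. Of them 65.1%, 71.6% and 56.8% were above 0 in those Top2b-deleted pairs, beside 48.1%, 49.8% and 44.4% of all genes. The 2034 genes lower in wild type had medians of -0.20, -0.11 and -0.06, against -0.58, -0.80 and -0.54, and 75.3%, 74.3% and 71.1% of them were below 0. The wild-type medians are large because those values chose the genes, so they are a description only.

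**Figure D4:**
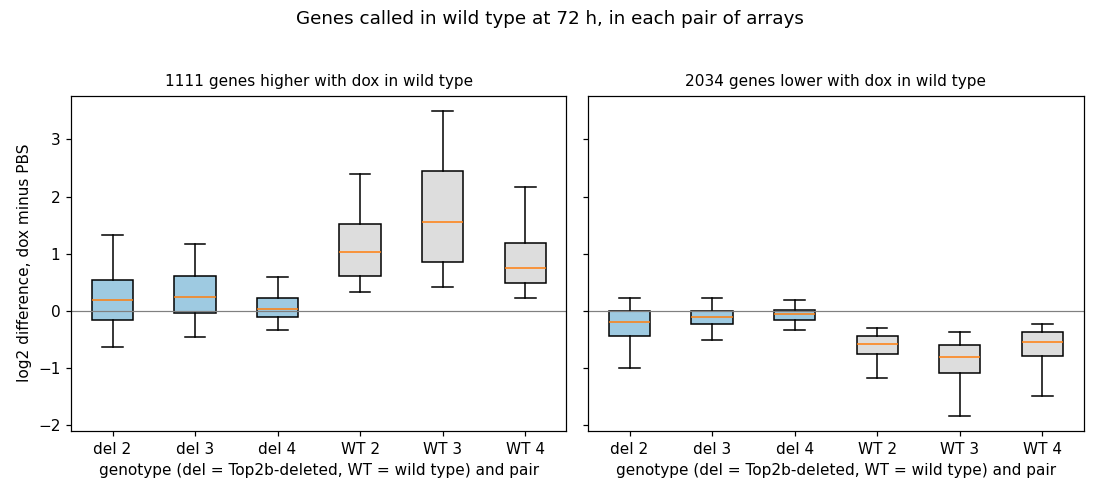
Log2 differences, doxorubicin minus PBS, in each pair of arrays at 72 h, for the genes past the threshold in wild type on the spread of 12 arrays, with Top2b-deleted pairs (del) left of wild-type pairs (WT). Boxes span the middle 50% of genes with the median as a line and whiskers reach the 5th and 95th percentiles. For 1111 genes higher in wild type the Top2b-deleted medians are 0.19, 0.25 and 0.04, and for 2034 genes lower in wild type they are -0.20, -0.11 and -0.06.

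Several pathway lists had medians further from 0 in wild type than in Top2b-deleted cells. Interferon response genes had a median of 0.03 in Top2b-deleted cells and 0.96 in wild type, MHC class I and immunoproteasome genes 0.24 and 1.69, and xenobiotic enzymes 0.27 and 1.66. Immediate early genes had -0.24 in Top2b-deleted cells and 0.97 in wild type. The difference of these lists was not tested. Among the genes with the smallest p-values for a difference of responses were Btg2, with -1.64 ± 0.20, and the nuclear receptor gene Nr4a1, with -2.70 ± 0.38 (adjusted p = 0.209 in limma for both, Top2b-deleted response minus wild-type response). Nr4a1 was at 5.11, 4.15 and 3.71 after doxorubicin and at 5.20, 5.55 and 3.86 after PBS in Top2b-deleted cells, and at 6.65, 6.14 and 5.56, against 4.27, 4 and 3.61, in wild type. Its wild-type groups did not overlap, whereas the Top2b-deleted groups did.

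Spsb2, Gstt2 and Inmt had differences of -1.51, -1.10 and -3.23. On the other side stood Egln3, a prolyl hydroxylase that acts on hypoxia-inducible factors, with 1.66 ± 0.22. It was at 3.64, 3.71 and 3.23 after doxorubicin and at 3.19, 3.1 and 3.19 after PBS in Top2b-deleted cells, and in wild type at 1.95, 1.36 and 1.4 after doxorubicin and 3.03, 2.85 and 2.70 after PBS. Cyp1a1, a xenobiotic-metabolising cytochrome, was not above background on any Top2b-deleted array, and in wild type on the PBS arrays only, so its value of 2.75 for the difference of responses rests on the wild-type arrays. Pcsk4, well above background on all 12 arrays, had 0.88. Oas1d, with 1.35, was well above background on 1 of 3 wild-type doxorubicin arrays, and Defa-rs2, with 2.70, on 0 of 6 wild-type arrays, so neither value is a measured size. C3, which was higher in every Top2b-deleted pair, had a difference of responses of -1.96 ± 0.60 (adjusted p = 0.249 in limma), and Dnajb1 had one of -0.20 ± 0.24 (95% interval from -0.75 to 0.34).

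**Figure D5:**
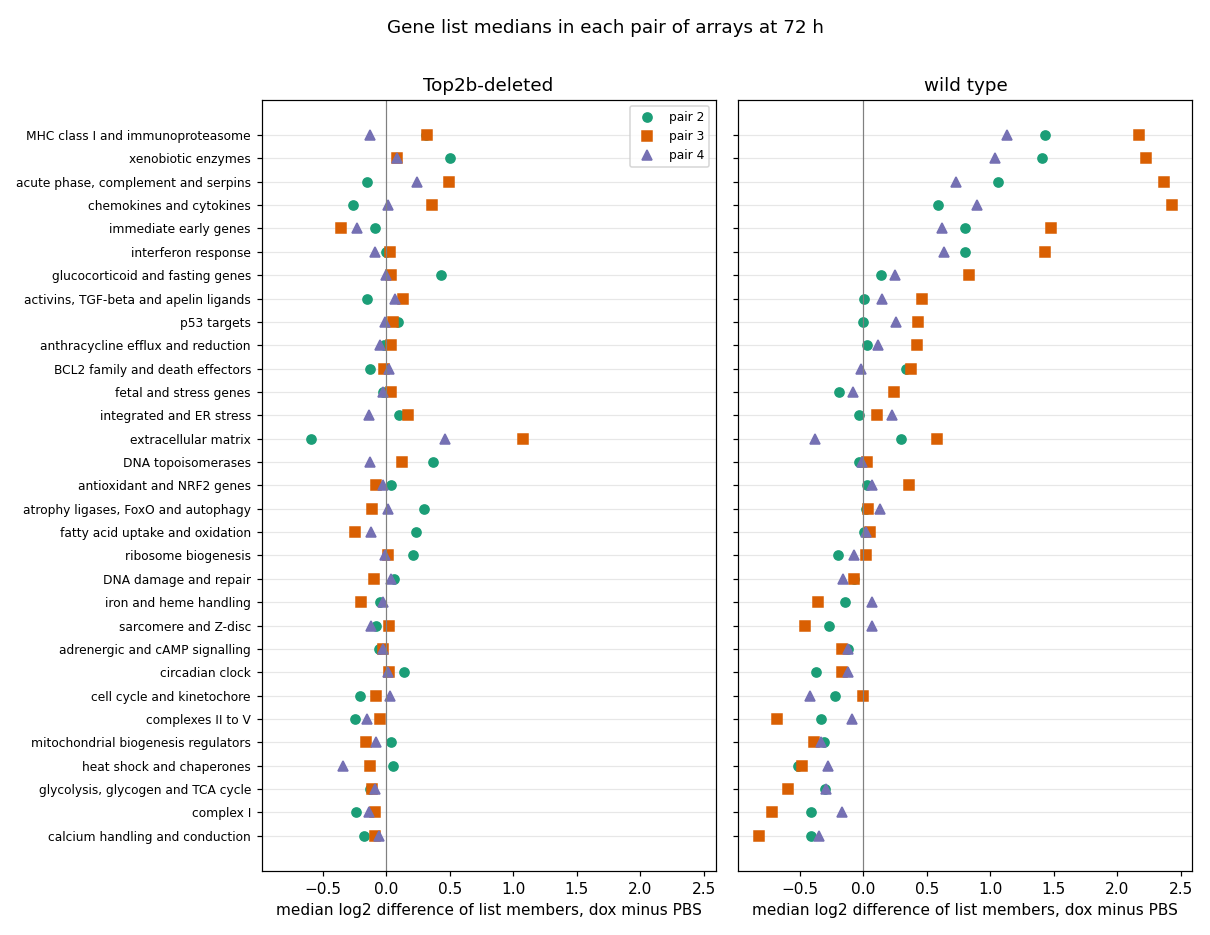
Median log2 difference, doxorubicin minus PBS, over the tested members of 31 pathway lists in each pair of arrays at 72 h, Top2b-deleted at left and wild type at right, with lists ordered by the wild-type value. In Top2b-deleted cells most medians lie near 0, with extracellular matrix spread from -0.59 to 1.1. In wild type the highest median is 2.43, for chemokines and cytokines in pair 3, and MHC class I genes reach 2.17.

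At 16 h, on other slides, the 6 Top2b-deleted arrays had 0 of 17994 genes past the threshold in limma without a block (lowest adjusted p = 0.12, 2170 or 12.1% at an unadjusted p under 0.05). All doxorubicin arrays of 16 h and PBS replicate 3 lay on 1 slide, and PBS replicates 1 and 2 on another. Treatment and slide thus largely coincide at 16 h, and the fit had no slide term. Times and slides cannot be told apart either, so the values of the 2 times stand side by side with no test. Lcn2 had a difference of 1.31 ± 0.25 at 16 h and 0.87 ± 0.14 at 72 h. C3 had -0.03 ± 0.21 at 16 h and 0.95 ± 0.13 at 72 h, and Dnajb1 had -0.17 ± 0.17 and -0.97 ± 0.18. Cdkn1a had 0.55 ± 0.25 at 16 h and 0.36 ± 0.19 at 72 h.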

How the data were processed

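The authors deposited 1 scanner file per array, made, per the file headers, by Feature Extraction 10.7.3.1 of Agilent, with a processed intensity for each spot on a linear scale and no normalization between arrays. The value table they deposited is a linear ratio, each processed signal divided by its array's median, as found by comparison. From the intensity, log2 minus the array's 75th percentile was taken, outlier spots were set to missing (98 to 134 per array), repeated spots were reduced to their mean per probe, and the probe with the highest mean level stood for its gene. Gene names and positions (mm9) are those of the array files. Fits used limma 3.58.1 in R 4.3.3 with the replicate number as a block, Benjamini-Hochberg adjustment over all genes tested and a threshold of 0.05. The block was kept because same-numbered arrays share a slide and their deviations from the group means correlated at 0.43, 0.29 and 0.74. Replicates 2 and 3 lay on the same slide, however. Doxorubicin replicate 2 correlated at 0.34 with PBS replicate 3, and doxorubicin replicate 3 at 0.18 with PBS replicate 2. These values therefore do not clearly separate pair 2 from pair 3. The 12 arrays of 72 h were fitted together for the difference of responses. The procedure was tested on simulated data. The members and the 31 pathway and 12 marker lists were chosen with earlier results of these data known. Genes were named by smallest p among those on one side in all 3 pairs with no overlap, by list, by bound, or after their values were seen. The number of arrays limits the precision. Alternatives tried were other backgrounds, scalings, filters, probe rules, blocks and leaving out replicates.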

Additional observations from a re-analysis of the deposited data

How the results depend on the processing

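In Top2b-deleted cells 0 genes passed the threshold in limma under each of the 18 alternatives, including the fit without the replicate block (lowest adjusted p = 1). The difference of responses had 0 genes under 10 of 11 alternatives. The exception was the filter for probes well above background on every array, where 1 of 16800 genes passed, Arhgef19 (1.53 ± 0.132, adjusted p = 0.0178), by a probe other than its brightest. The wild-type count on its own arrays was 0 with the block, 26 without it, and 3289 and 530 on the spread of 12 arrays with and without it. The 12-array count ranged from 0 to 446 without 1 replicate. These wild-type alternatives were chosen after seeing the data, and the cause of these shifts was not tested.

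Counts of genes at least 2-fold apart depended on the treatment of dim probes. With normexp they were 201 higher and 178 lower in pair 2, 75 and 78 in pair 3, and 4 and 26 in pair 4. With no filter they were 1668 and 2266 in pair 2, 2050 and 1146 in pair 3, and 2110 and 1076 in pair 4.

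Signs turned for uncalled genes when pair 2 or 1 array was left out. Leaving out 1 pair gave -0.71 to 1.79 for Hmox1, -0.22 to 1.65 for Myh7, -0.56 to 1.32 for Acot1, -0.52 to 0.17 for Nppa, -1.61 to 1.25 for Postn, -0.01 to 0.19 for Top1 and -0.09 to 0.06 for Top1mt, with the sign of the first 6 turned without pair 2. Without doxorubicin replicate 2 and without the block, Hmox1 was at -0.65, Myh7 -0.05, Acot1 -0.69, Nppa 0.21, Nppb 0.08, Postn 1.42, Top1 -0.09, Top2b -0.09, Top3a -0.04 and Top3b -0.11. Without PBS replicate 4, Top3b was at -0.08, Nppb 0.21 and Postn 0.22, and Postn was at 0.15 with normexp. Top1mt was at 0.08 without doxorubicin replicate 4 and at 0 without PBS replicate 2. Trim12c was at -0.06 by the mean of its probes. The cause was not tested.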
